A study of Mus musculus with 6 samples.

Results

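The mitochondrial ribosomal proteins were taken as the protein-coding genes of a liver expression table whose symbol begins with Mrpl or Mrps followed by a number. There were 77 among the 24034 genes of the table, 48 named for the large subunit (Mrpl) and 29 for the small subunit (Mrps). Symbols chose them, not values. RNA sequencing was done on whole liver of C57BL/6 mice aged 25 weeks, in 3 libraries of genotype lncenc1wt/wt (WT) and 3 of genotype lncenc13A/3A (HO), which the series describes as knockouts for Lncenc1, a long non-coding RNA. The comparison was of HO with WT. The sources used here do not give what the 3A allele changes, the substrain or the founders behind it. Lncenc1 RNA was not analysed here, and the labels alone give each genotype. The labels do not say that the libraries came from different animals, and p-values then measure only the spread between these samples, which may be technical.

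Mitochondria carry their own ribosomes, which translate the few mRNAs of the mitochondrial genome, all of them for subunits of the respiratory chain and ATP synthase. The RNA of these ribosomes is made in the mitochondrion, while all their proteins are encoded in the nucleus, made in the cytosol and imported. Many of the proteins descend from bacterial ribosomal proteins and others are found only in mitochondrial ribosomes.

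Of the 77 genes, Mrps21 rose and Mrps14 fell in HO, and both belong to the small subunit. No Mrpl gene passed the test. Most of the other members had slightly lower values in HO, with a median log2 change of -0.18 over the 48 Mrpl genes and -0.11 over the 29 Mrps genes, beside -0.09 over all 13250 genes tested. Levels are in FPKM (fragments mapped to a gene, scaled by its length and by the library's mapped fragments). A log2 change is HO minus WT of log2(FPKM + 0.5), so changes of weakly expressed genes are understated, and comes from limma fitted to every gene whose mean reached 0.5 FPKM. A gene was called when its Benjamini-Hochberg adjusted p was under 0.05. All 77 members passed the filter. Of all genes tested 1.14% were called, 0.325% as higher and 0.815% as lower, so 2 calls among 77 members are near the background share.

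The libraries summed to 495600 to 518200 FPKM, and the median over all genes was 0.853 to 0.879 FPKM in WT and 0.742 to 0.788 in HO. The 8 hepatocyte markers summed to 51120 to 55550 FPKM in WT and 46830 to 51480 in HO, with overlap, which fits the liver label. Of these 8 genes 1, Cps1, rose (limma adjusted p = 0.0422). The call of Cps1 did not hold without a trend (limma adjusted p = 0.0674), with no filter (0.0867), with the replicate block (0.0571), or without any 1 of WT replicates 1 and 2 and HO replicates 2 and 3 (0.0852 to 0.166). The hepatocyte markers Fgb (log2 change 0.89) and Ttr (-0.54) did not overlap and missed the threshold (limma adjusted p = 0.0970 and 0.0737). Fgb passed as higher with array weights (limma adjusted p = 0.0332) and without HO replicate 1 (0.0292). Ttr passed as lower with array weights (limma adjusted p = 0.0303) and quantile normalization (0.0316). Markers of other cells were mostly lower in HO and none of them passed the test. Of those whose alternatives were computed, with array weights Col3a1, Dcn, Colec11, Ptprb, Hbb-bt, Hba-a1, Hba-a2 and Cfd passed as lower (limma adjusted p of 0.0287 to 0.0438), and without HO replicate 1 Ptprb, Hbb-bt, Hba-a1 and Hba-a2 did (0.0236 to 0.0328). The 6 stellate cell and fibroblast markers summed to 102.1 to 125.9 FPKM in WT and 68.1 to 87.8 in HO, the 5 erythroid markers to 644.4 to 667.2 and 319.2 to 547.5, and the 5 biliary markers to 24.2 to 27.6 and 20.1 to 23.0. Those sums did not overlap between the groups. The 7 Kupffer cell and macrophage markers (70.1 to 126.3 and 58.0 to 78.1), the 6 endothelial markers (42.1 to 52.3 and 38.3 to 42.2) and the 5 lymphocyte markers (1.03 to 2.14 and 0.540 to 1.25) overlapped. The adipocyte set summed to 79.6 to 84.2 FPKM in WT and 14.4 to 34.0 in HO, while its defining genes Adipoq and Plin1 were listed at 0 in all libraries. The part of these cells in the results on the mitochondrial ribosomal proteins was not tested, and in bulk liver fewer cells of a type and less RNA per cell cannot be told apart.

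The sequences before the start sites of both called members, of the abundant Mrpl12, and between the starts of 2 gene pairs are printed because their genes are compared here. They are RefSeq sequences (GRCm38.p6, mm10), written 5′ to 3′ on the strand of the first-named gene and ending at the base before its start: chr3:95871515-95871764 (minus strand), chr1:160194965-160195214 (plus strand), chr11:120484387-120484636 (plus strand), chr7:28741822-28741967 (minus strand, from the start of Sars2 to that of Mrps12) and chr7:78783090-78783130 (plus strand, from the start of Mrpl46 to that of Mrps11). Capitals mark matches on either strand to any of 5 short motifs, none of which overlapped another here. These are TGCGCA, from the site of NRF1, a regulator of nuclear genes for mitochondria, CCGGAAG, from that of ETS factors such as GABPA, ATGGCGG, from that of YY1, GGGCGG, the GC box of SP factors, and CACGTG, the E box.
Mrps21: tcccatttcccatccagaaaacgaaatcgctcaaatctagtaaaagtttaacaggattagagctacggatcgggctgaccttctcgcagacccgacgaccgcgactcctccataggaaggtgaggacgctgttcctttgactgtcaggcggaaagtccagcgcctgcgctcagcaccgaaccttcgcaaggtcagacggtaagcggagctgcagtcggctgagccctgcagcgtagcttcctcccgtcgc
Mrps14: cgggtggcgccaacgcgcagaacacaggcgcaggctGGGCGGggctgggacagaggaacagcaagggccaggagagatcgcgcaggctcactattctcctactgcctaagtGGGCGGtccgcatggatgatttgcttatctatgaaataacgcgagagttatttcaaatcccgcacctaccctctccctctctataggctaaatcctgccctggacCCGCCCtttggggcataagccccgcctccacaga
Mrpl12: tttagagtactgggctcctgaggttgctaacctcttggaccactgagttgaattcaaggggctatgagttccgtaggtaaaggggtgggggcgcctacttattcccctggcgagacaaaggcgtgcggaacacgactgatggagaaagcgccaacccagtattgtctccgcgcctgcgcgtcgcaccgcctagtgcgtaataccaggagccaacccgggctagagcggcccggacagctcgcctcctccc
Mrps12 and Sars2: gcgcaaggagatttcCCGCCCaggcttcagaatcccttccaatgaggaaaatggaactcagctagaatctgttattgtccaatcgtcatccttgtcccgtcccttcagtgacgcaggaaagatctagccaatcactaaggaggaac
Mrps11 and Mrpl46: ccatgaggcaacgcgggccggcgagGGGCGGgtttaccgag
Mrps14 holds 3 GC boxes here, each stretch between paired genes holds 1, and none of the 5 motifs was found in the printed stretches of Mrps21 and Mrpl12. The longer window of Mrps21, which takes in bases after the start, holds the ETS core.

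Promoter windows of 300 bases, 250 before and 50 after the start, were found for 68 of the 77 members. The ETS core stood in 25 of them (36.8%), beside 20.8% of 8906 tested protein-coding genes and 9.93% of all 27025 windows. The NRF1 core stood in 21 (30.9%, beside 16.1% and 8.79%), and the YY1 core in 12 (17.6%, beside 9.90% and 4.69%). The GC box was in 34 of the 68, beside 68.0% of the tested genes and 38.2% of all windows, and the E box in 5 (7.35%, beside 11.9% and 8.09%). By subunit, the NRF1 core was in 12 of 42 Mrpl and 9 of 26 Mrps windows, and the ETS core in 14 and 11. The median log2 change was -0.18 for members with the NRF1 core and -0.18 for those without, -0.21 and -0.15 for the ETS core, and -0.06 and -0.21 for the YY1 core. These medians are of the deposited scaling, and their differences were not tested. The motif cores had been shortened after longer ones were searched, so they were not fixed in advance. A match is a description of letters in a window and not a site of binding.

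Mrps21 encodes the counterpart of bacterial S21, a short protein of the small subunit. The gene (ENSMUSG00000054312.6) lies on the minus strand at chr3:95862634-95871519 (mm10) and has 739 exonic bases. Its FPKM was 15.9, 17.3 and 15.3 in the WT libraries and 39.9, 39.2 and 39.9 in the HO libraries. The libraries of each group lay close together and the groups far apart, with means of 16.2 ± 1.03 in WT and 39.7 ± 0.426 in HO (SD, n = 3 each), a ratio of 2.46. The log2 change was 1.27 ± 0.08 (SE) with a limma adjusted p of 0.00721, and no gene of the table had a smaller one. Adjusted values can be tied between genes, so Mrps21 need not have the smallest unadjusted p of the table. Mrps21 passed under all 16 alternative fits, with log2 changes of 1.24 to 1.37 and limma adjusted p-values of 0.00494 to 0.0487. A near-identical copy, the processed pseudogene Gm6181 on chromosome 7, matches 264 bases at 97.3% identity. It was at 0.120, 0.201 and 0.0955 FPKM in WT and listed at 0 in all HO libraries.

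Mrps14 encodes the counterpart of bacterial S14 in the head of the small subunit. The gene (ENSMUSG00000058267.13) lies on the plus strand at chr1:160195215-160202170 (mm10). It was at 15.17, 16.55 and 18.89 FPKM in WT and at 9.06, 7.87 and 9.26 in HO. Every HO library was below every WT library, with means of 16.87 ± 1.89 and 8.73 ± 0.751 (SD, n = 3 each). The log2 change was -0.91 ± 0.12 (SE, limma adjusted p = 0.0284). The call was kept in 10 of 16 alternative fits. It was lost with no filter on low values (limma adjusted p = 0.0521) and with the replicate number as a block (0.0632). Leaving out a library also ended it for WT replicate 1 (limma adjusted p = 0.0944), for WT replicate 2 (0.121), for HO replicate 2 (0.0799) and for HO replicate 3 (0.0679). The log2 change lay between -0.98 and -0.81 in all of them.

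**Figure D1:**
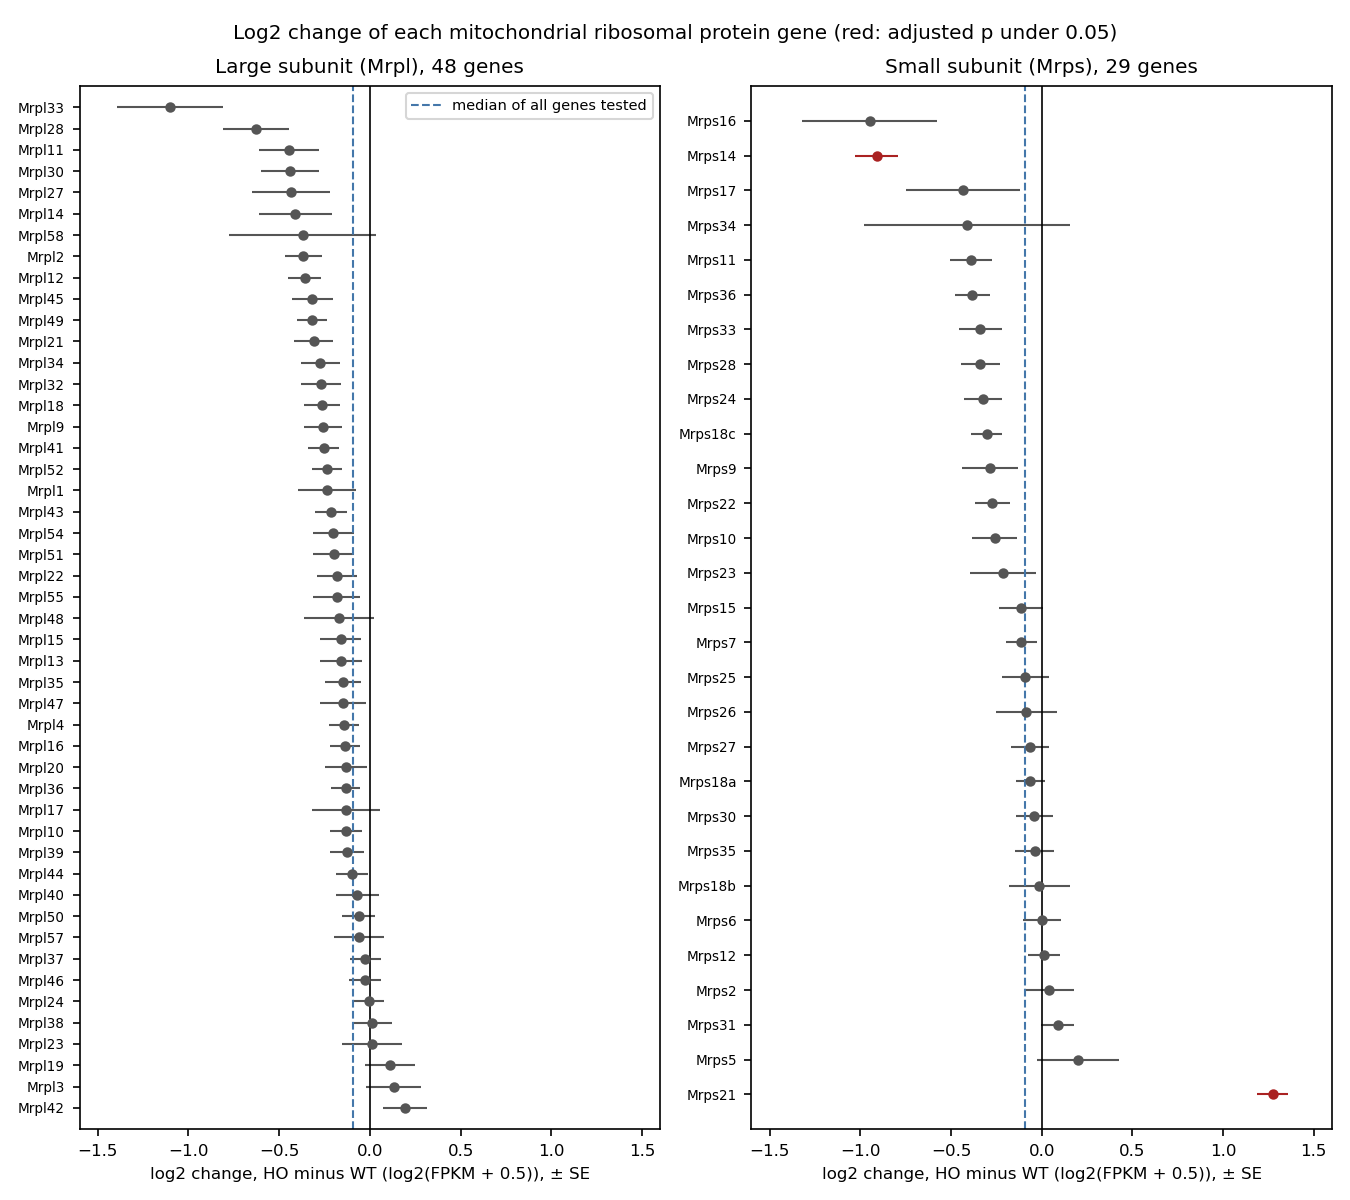
Log2 change (HO minus WT, log2(FPKM + 0.5) scale) of the 48 Mrpl and 29 Mrps genes, with points for limma estimates, bars for their SE and red for an adjusted p under 0.05. The dashed line is the median of all genes tested (-0.09), and only Mrps21 (1.27) and Mrps14 (-0.91) are red.

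An absolute log2 change of 0.5 or more was found for 5 of the 77 members, and the other 72 were under it. Besides both called genes these were Mrpl33, Mrps16 and Mrpl28, of which Mrps16 and Mrpl28 are named after their values were seen. In these 3 genes 1 HO library stood apart from the others. Mrpl33, a short large subunit protein with a bacterial counterpart, was at 17.5, 17.8 and 17.2 FPKM in WT and at 5.38, 6.75 and 13.4 in HO. The WT libraries were nearly equal and all HO libraries lower, HO replicate 3 least so, and the log2 change of -1.10 ± 0.29 (SE) had a limma adjusted p of 0.101. Without HO replicate 3 it was -1.46 and passed (limma adjusted p = 0.0490), in a fit in which 15 of all genes passed. Leaving out the HO library nearest to WT enlarges the change by construction, so this pass adds no support.

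Mrps16, whose mutation in humans causes a defect of mitochondrial translation, was at 15.4, 14.7 and 17.0 FPKM in WT and at 15.8, 5.16 and 5.90 in HO. HO replicate 1 lay within the WT range and the other HO libraries far below it (log2 change -0.95 ± 0.37 SE, limma adjusted p = 0.204). Without HO replicate 1 the log2 change was -1.43 and passed (limma adjusted p = 0.0166), in a fit in which 203 of all genes passed. The library left out was again the HO library nearest to WT, so this pass adds no support either. Mrpl28, a large subunit protein with a bacterial counterpart, was at 28.5, 28.8 and 28.9 FPKM in WT and at 16.1, 15.3 and 25.2 in HO. Here too every HO library was lower and HO replicate 3 nearest to WT (log2 change -0.63 ± 0.18 SE, limma adjusted p = 0.120).

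Most members varied little within a group. The median ratio of the highest to the lowest library was 1.15 in WT and 1.19 in HO, beside 1.26 and 1.30 over all genes tested. The ratio was above 1.5 in WT for 7 members and in HO for 10, and in either group for 15. The most uneven, named after its values were seen, was Mrps34, a small subunit protein found only in mitochondrial ribosomes, at 11.9, 12.7 and 50.4 FPKM in WT and 11.9, 24.3 and 11.1 in HO. WT replicate 3 and HO replicate 2 stood above the rest, and the groups overlapped. Mrps34 shares 63.4% of its exonic bases with Mapk8ip3 on the other strand and 37.0% with Nme3 on the same strand, so its values are uncertain.

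**Figure D2:**
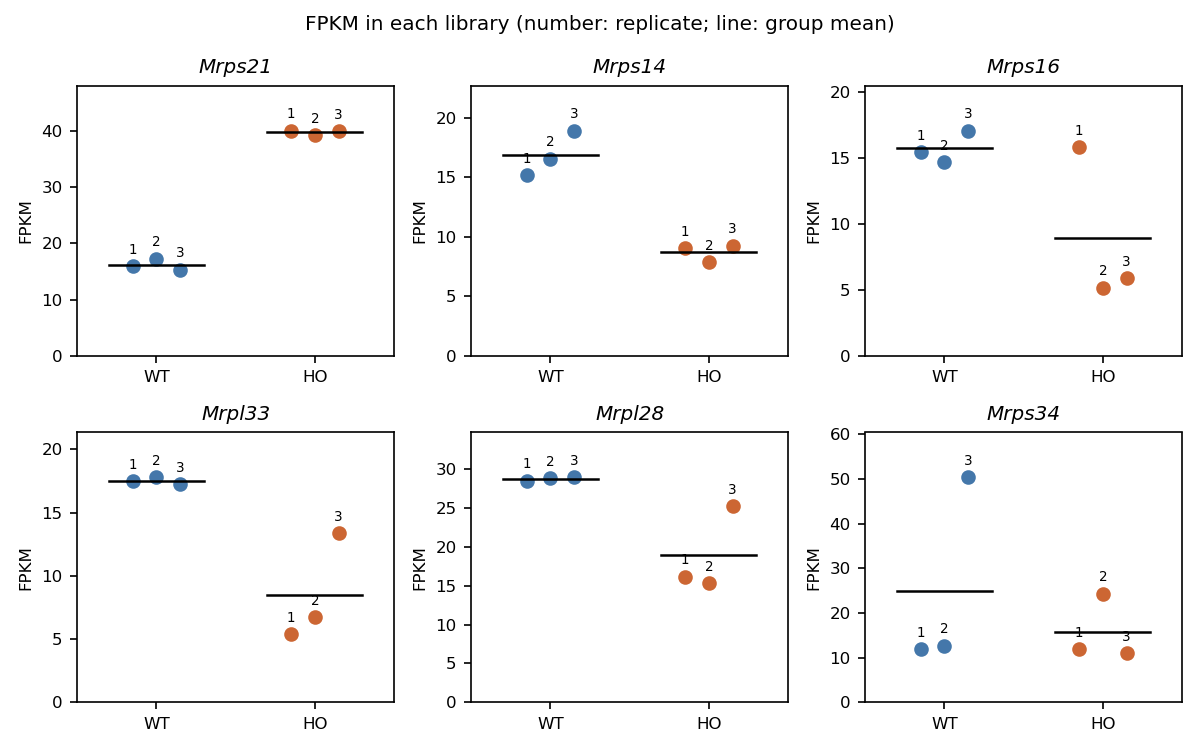
FPKM of 6 members in each of the 6 libraries, with points numbered by replicate and lines at the group means. Mrps21 and Mrps14 separate by group, HO replicate 1 of Mrps16 (15.8) lies among the WT values, HO replicate 3 is the highest HO library of Mrpl33 (13.4) and Mrpl28 (25.2), and WT replicate 3 of Mrps34 (50.4) stands alone.

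Over the 48 Mrpl genes the log2 change was negative for 43 and positive for 5, from -1.10 to 0.19, with quartiles of -0.28 and -0.12. All HO values were below all WT values for 20 of them and above for none. Over the 29 Mrps genes it was negative for 23 and positive for 6, with quartiles of -0.34 and -0.04, and all HO values were below all WT values for 10 and above for 1. Together 30 of 77 members (39.0%) were lower in HO without overlap, beside 21.4% of all genes tested, and 1 was higher without overlap, beside 6.42%. An unadjusted limma p under 0.05 with a lower value in HO was found for 25 members (32.5%), beside 16.5% of all genes. Negative changes made up 66 of 77 (85.7%), beside 64.6%. These shares are above those of all genes tested, and they are descriptions, since genes of 1 library are not independent. The shares without overlap and with an unadjusted p under 0.05 were taken in the deposited scaling only. Members also varied less within a group than all genes tested and had higher levels (median of means 17.5 beside 5.5 FPKM). The part of these differences in the shares was not tested.

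Direction depended on how the libraries were scaled. With median-of-ratios scaling the median of all genes moved from -0.09 to -0.002, that of the Mrpl genes to -0.08 and that of the Mrps genes to -0.01. With quantile normalization they were -0.002, -0.09 and -0.03. Negative members then numbered 52 and 55 of 77, beside 6680 and 6676 of the 13250 genes tested, and 14 and 11 members turned sign. Relative to the median of all genes, the Mrpl median was thus lower by under 0.1 on the log2 scale in each of these fits. Mrps21 and Mrps14 passed under both scalings and no other member did, beside 1.0% and 0.966% of all genes.

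The stalk of the large subunit recruits the factors of translation. Mrpl12, its mobile protein, which has also been reported to bind the mitochondrial RNA polymerase, was at 71.9, 70.2 and 71.5 FPKM in WT and at 61.2, 51.3 and 54.1 in HO. All HO libraries were lower, with a log2 change of -0.36 ± 0.09 (SE) and the smallest limma adjusted p of the Mrpl genes, 0.0932. Mrpl10, which anchors the stalk, was at 25.9 ± 1.03 FPKM in WT and 23.6 ± 1.51 in HO (SD, n = 3 each), and its groups overlapped (limma adjusted p = 0.431). Mrpl11, at the base of the stalk, was at 11.65, 16.7 and 10.95 in WT and 8.84, 9.11 and 10.04 in HO. WT replicate 2 stood above the rest and the groups did not overlap (log2 change -0.45 ± 0.16 SE, limma adjusted p = 0.182).

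After Mrpl12 the Mrpl genes with the smallest p and a negative change were Mrpl49, Mrpl33 and Mrpl2. Mrpl49, found only in mitochondrial ribosomes, was at 18.5, 18.7 and 19.8 FPKM in WT and at 15.1, 14.7 and 15.6 in HO. The groups did not overlap (log2 change -0.32 ± 0.08 SE, limma adjusted p = 0.0985). Mrpl2, whose bacterial counterpart lies near the site of peptide bond formation, was at 34.5, 39.6 and 37.1 in WT and at 31.9, 27.1 and 27.0 in HO. It did not overlap either (log2 change -0.37 ± 0.10 SE, limma adjusted p = 0.112). With array weights, which give uneven libraries less weight, Mrpl12 and Mrpl2 passed as lower (limma adjusted p = 0.0395 and 0.0484). In the same fit 941 genes passed in either direction, among them the markers of other cells named above as lower, whose part in these calls was not tested.

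Mrpl45, which lies near the exit of the new chain and holds the ribosome to the inner membrane, was at 13.9, 12.9 and 11.8 FPKM in WT and 11.2, 9.17 and 10.3 in HO. Its groups did not overlap (log2 change -0.32 ± 0.11 SE, limma adjusted p = 0.171). Mrpl44, which resembles an RNA-cutting enzyme, was at 14.9 ± 0.300 and 13.9 ± 0.812 (SD, n = 3 each, limma adjusted p = 0.557). Mrpl58, a relative of release factors that frees stalled ribosomes, was at 10.8, 26.1 and 10.1 in WT and 7.47, 10.5 and 16.4 in HO, with overlap and with 1 high library in WT. The 4 Mrpl genes with the smallest p and a positive change were Mrpl42, Mrpl3, Mrpl19 and Mrpl38, with log2 changes of 0.19, 0.13, 0.11 and 0.01. All of them overlapped between the groups, and the smallest limma adjusted p among them was 0.403.

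Levels differed widely within the large subunit. As FPKM, which is per length, the means over the 6 libraries ran from 3.39 for Mrpl19 to 65.6 for Mrpl52. Mrpl52 was at 71.0 ± 2.32 in WT and 60.2 ± 4.32 in HO (SD, n = 3 each), Mrpl12 had a mean of 63.4 and Mrpl30 one of 50.4. The lowest after Mrpl19 were Mrpl47 (4.57) and Mrpl17 (5.15). A mean of 30 FPKM or more was found for 12 Mrpl and 3 Mrps genes, and a mean under 10 for 8 and 6. Mrpl19 shares 36.0% of its exonic bases with Gcfc2 on the other strand.

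In the small subunit the members with the smallest p and a negative change after Mrps14 were Mrps36, Mrps18c and Mrps11. Mrps36, named as a ribosomal protein but since assigned to the 2-oxoglutarate dehydrogenase complex of the citrate cycle, was at 11.8, 10.9 and 10.4 FPKM in WT and 7.84, 8.79 and 8.41 in HO. The groups did not overlap (log2 change -0.38 ± 0.10 SE, limma adjusted p = 0.0968). Mrps12, whose bacterial counterpart lies at the decoding centre, was the most abundant member of the small subunit, at 36.1 ± 1.54 in WT and 36.4 ± 2.57 in HO (SD, n = 3 each), with overlap. Mrps18c (mean 33.8) and Mrps7 (32.7) followed, and Mrps25 (5.35), Mrps35 (6.24) and Mrps30 (7.26) were the lowest. Mrps25 shares 69.8% of its exonic bases with Nr2c2 on the other strand, so its level is uncertain. After Mrps21 the members with the smallest p and a positive change were Mrps31, Mrps5 and Mrps2, with log2 changes of 0.09, 0.20 and 0.04 and limma adjusted p-values of 0.615, 0.650 and 0.890.

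Mrps18a, Mrps18b and Mrps18c are relatives of bacterial S18. Mrps18c was at 34.3, 38.6 and 39.3 FPKM in WT and at 30.2, 30.1 and 30.1 in HO. The HO libraries were nearly equal and all below WT (log2 change -0.30 ± 0.09 SE, limma adjusted p = 0.114). Mrps18b was at 17.3 ± 2.92 and 17.1 ± 3.06 and Mrps18a at 29.1 ± 0.412 and 27.9 ± 1.19 (SD, n = 3 each), both with overlap. The differences between the 3 genes were not tested. Mrps18b has a pseudogene copy, Gm13552, of 99.8% identity over 417 bases at a mean of 5.59 FPKM, and shares 30.5% of its exonic bases with an antisense gene. Mrps18c shares 23.2% with another annotated gene on the same strand.

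Structures of the ribosome place Mrps18a and Mrps30 in the large subunit and do not hold Mrps36. Sorted in this way, the median log2 change was -0.17 over 50 large subunit genes and -0.16 over 26 small subunit genes, so the gap between the medians by name went with those 3 assignments. Large subunit proteins with a bacterial counterpart had a median of -0.18 (31 genes) and those found only in mitochondria -0.13 (19 genes), and in the small subunit the medians were -0.26 (17 genes) and -0.09 (9 genes). None of the 5 ribosomal subunits that lack an Mrp symbol passed. Chchd1 was at 26.2, 26.5 and 26.1 FPKM in WT and 22.4, 21.3 and 21.5 in HO without overlap (log2 change -0.27 ± 0.08 SE, limma adjusted p = 0.114). Gadd45gip1 was at 20.7 ± 0.634 and 17.5 ± 1.41 (SD, n = 3 each), also without overlap (limma adjusted p = 0.199). Dap3, Ptcd3 and Aurkaip1 overlapped, with log2 changes of -0.15, 0.08 and 0.09.

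Summed over the 48 Mrpl genes, FPKM was 1159, 1214 and 1136 in WT and 1025, 970.4 and 1012 in HO. All HO sums were lower, and the mean was 1170 ± 40.2 in WT and 1003 ± 28.7 in HO (SD, n = 3 each), a difference of -14.3%. Summed over the 29 Mrps genes it was 532.0, 528.5 and 569.9 in WT and 503.8, 504.4 and 468.7 in HO. These sums did not overlap either, with a difference in the mean of -9.42%, or -14.2% with Mrps21 left out. Sums lean on the abundant members and hold the shift of the whole table.

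**Figure D3:**
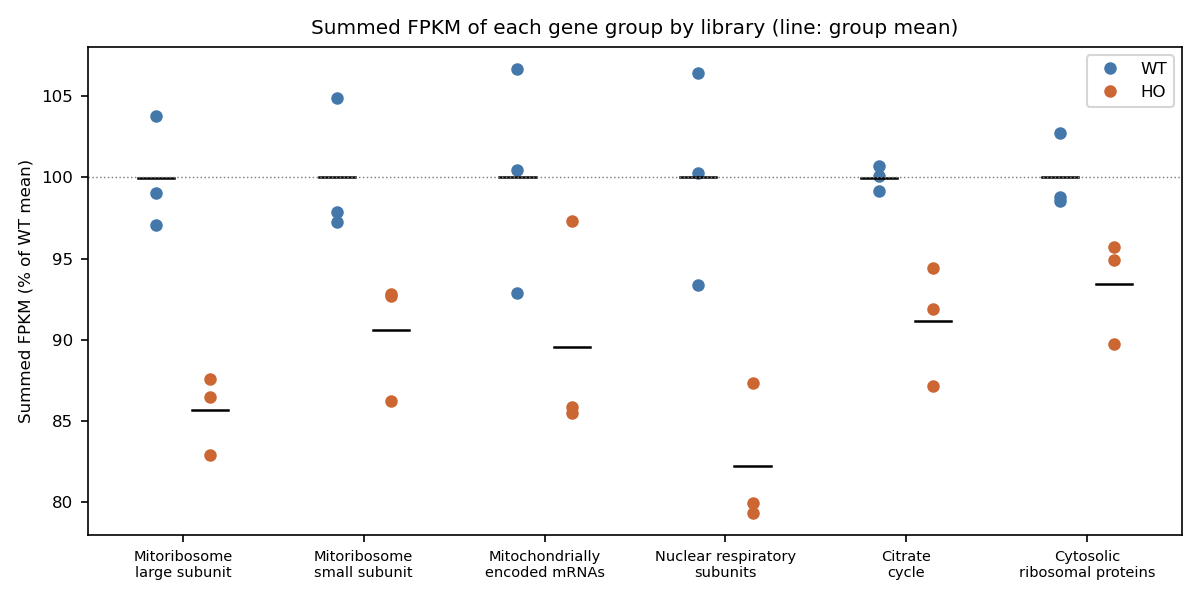
Summed FPKM of gene groups in each library as a percent of the WT mean, with points for libraries and lines for group means. HO libraries lie below all WT libraries in both subunits, with differences in the mean of -14.3% (Mrpl) and -9.42% (Mrps).

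The products of the mitochondrial ribosome join nuclear-encoded subunits in the respiratory complexes. Of 78 such nuclear genes measured, 77 had a negative change, with a median of -0.28, or -0.17 with median-of-ratios scaling, and 1 fell. This was Ndufb8, of complex I, at 86.6, 103.0 and 90.1 FPKM in WT and 60.1, 62.0 and 60.4 in HO (log2 change -0.61 ± 0.09 SE, limma adjusted p = 0.0362). The call of Ndufb8 did not hold under that scaling (limma adjusted p = 0.0641), under quantile normalization (0.0554) or without any 1 of the libraries other than WT replicate 3 (0.0539 to 0.134). This call was also lost without a trend (limma adjusted p = 0.0701), with no filter (0.06275) and with the replicate block (0.07885). The mRNAs that the mitochondrial ribosome translates had a negative change for 11 of 13 and a median of -0.17, and none passed. With median-of-ratios scaling 8 of 13 were negative and the median was -0.07. As lower values, mt-Nd6 passed with quantile normalization (limma adjusted p = 0.0495) and mt-Atp6 without WT replicate 1 (0.0487). That library lay within the HO range, since mt-Atp6 was at 6.90, 46.4 and 41.6 FPKM in WT and 6.98, 4.49 and 7.02 in HO. Its mean of 18.9 FPKM was the lowest of the 13, whose median was 2757. The 13 mRNAs summed to 39610 to 45490 FPKM in WT and 36460 to 41510 in HO, with overlap.

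Of 84 cytosolic ribosomal proteins measured, 62 had a negative change, with a median of -0.10, or 0.002 with median-of-ratios scaling, and 1 rose. This was Rpl22l1, a paralogue of Rpl22, at 23.6, 24.9 and 20.1 FPKM in WT and 35.0, 35.5 and 36.1 in HO (log2 change 0.63 ± 0.10 SE, limma adjusted p = 0.0454). The call of Rpl22l1 did not hold without any 1 of the libraries other than WT replicate 3 (limma adjusted p of 0.0603 to 0.149). This call was also lost without a trend (limma adjusted p = 0.0715), with no filter (0.07115), with a pseudocount of 0.1 (0.0504) and with the replicate block (0.0897). All HO values were below all WT values for 42 of the respiratory genes (53.9%) and 21 of the cytosolic ribosomal ones (25.0%), beside 39.0% of the mitochondrial ribosomal proteins and 21.4% of all genes tested, so the cytosolic share was near that of all genes. Differences between these lists were not tested.

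Other genes of mitochondrial gene expression were more evenly divided in the deposited scaling, and none of them passed. Of 26 factors that assemble the mitochondrial ribosome, 13 were negative and 13 positive (median -0.01, or 0.08 after median-of-ratios scaling and 0.06 after quantile normalization). Of 19 mitochondrial aminoacyl-tRNA synthetases, which charge the tRNAs, 11 were negative (median -0.01, then 0.08 and 0.06). Translation factors were negative for 10 of 14 (median -0.09, then 0.01 and 0.001) and genes of transcription and RNA handling for 10 of 22 (median 0.02, then 0.11 and 0.09). After rescaling, the assembly, synthetase and RNA handling medians thus lay above 0, and those of the Mrpl genes (-0.08 and -0.09) below it. The Mrps medians (-0.01 and -0.03) were near 0, with 16 and 18 of 29 genes negative, as were the medians of the translation factors. Differences between these lists were not tested. Tfam, which packages mitochondrial DNA and starts its transcription, was at 10.9, 10.3 and 10.8 FPKM in WT and 8.29, 8.07 and 9.05 in HO. It did not overlap (log2 change -0.32 ± 0.09 SE, limma adjusted p = 0.120).

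Of 10 regulators of mitochondrial biogenesis, 6 were negative (median -0.04). The coactivator Ppargc1a was at 1.505 ± 0.264 FPKM in WT and 1.03 ± 0.0884 in HO and its relative Ppargc1b at 1.27 ± 0.0740 and 2.22 ± 0.505 (SD, n = 3 each), neither with overlap and in opposite directions (limma adjusted p = 0.209 and 0.114). In the citrate cycle 14 of 17 genes were negative (median -0.17). Suclg2 and Cs were lower without overlap (log2 change -0.39 and -0.37, limma adjusted p = 0.0804 and 0.147). Of these, Suclg2 passed as lower with array weights (limma adjusted p = 0.0361). Fh1, the fumarase, went the other way, at 64.8, 62.9 and 62.9 FPKM in WT and 80.3, 91.5 and 90.0 in HO, and missed the threshold (limma adjusted p = 0.0571). Fh1 passed after median-of-ratios scaling (limma adjusted p = 0.0420) or quantile normalization (0.0482), under array weights (0.0267), and when HO replicate 1 was left out (0.0478).

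Many members start head to head with another gene. Of the 68 with a RefSeq start, 22 (32.4%) had a protein-coding gene on the other strand starting within 500 bases, beside 1212 of 8906 tested genes (13.6%). The partner was measured for 21 members, in 20 pairs, since Mrps11 and Mrpl46 are partners of each other. The partner's log2 change was negative for 18 and positive for 3, with a median of -0.17 beside -0.22 for the members, and no partner passed (smallest limma adjusted p 0.109). In this deposited scaling 64.6% of all genes tested were negative, and partners were not counted after rescaling. Some partners share exonic bases on opposite strands, such as Mrpl43 with Twnk (33.4% of Mrpl43). The part of shared bases, scaling or shared starts in these changes was not tested.

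Mrps11 and Mrpl46 start 42 bases apart, with the 41 bases printed above between them. Mrps11 was at 12.7, 14.6 and 15.4 FPKM in WT and 11.6, 11.0 and 9.66 in HO, without overlap (log2 change -0.39 ± 0.12 SE, limma adjusted p = 0.123). Mrpl46 was at 14.3, 13.7 and 13.3 in WT and 13.3, 14.3 and 13.0 in HO, with overlap (log2 change -0.02 ± 0.09 SE). The difference between the genes was not tested. Mrps12 and Sars2, the mitochondrial seryl-tRNA synthetase, start 147 bases apart and had log2 changes of 0.01 and -0.08. Mrpl49 and Fau, which encodes a cytosolic ribosomal protein, had -0.32 and -0.30, and Mrpl30 and Mitd1 had -0.44 and 0.12.

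**Figure D4:**
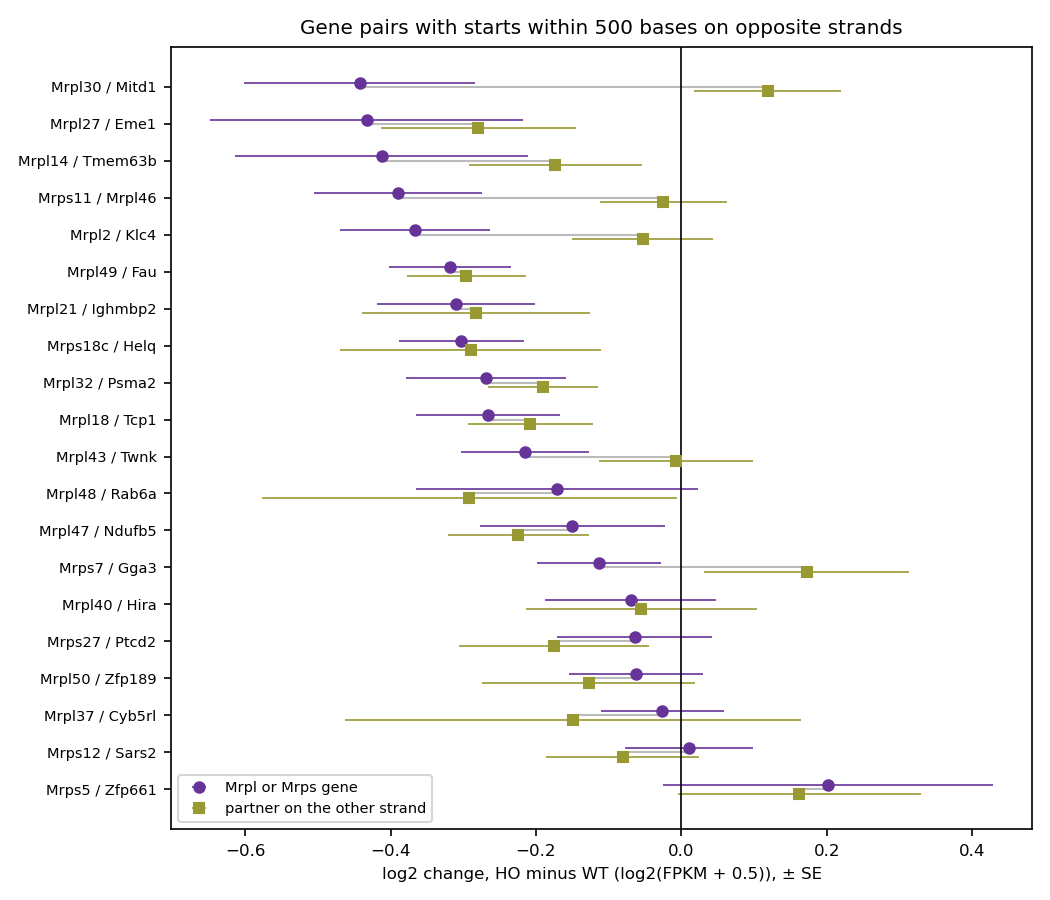
Log2 change (HO minus WT) of the members and partners of 20 head-to-head gene pairs with starts within 500 bases, with bars for the SE. Most pairs lie below 0 together, such as Mrpl49 and Fau (-0.32 and -0.30), while Mrpl30 and Mitd1 (-0.44 and 0.12) lie on opposite sides. Values are in the deposited scaling, in which 64.6% of all genes tested were negative.

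Some levels are limited by shared sequence. Exons of 32 members overlap another annotated gene, in 10 of them over 20% or more of the exonic bases, and the sources used here do not say whether counting used the strand. A near-identical copy, of 95% identity or more over at least 100 bases and 50% of a transcript, was found for 16 members, and for 7 of them such a copy was at 0.5 FPKM or more. The highest after Gm13552 were Gm6419 for Mrpl42 (mean 4.45 FPKM), Mrpl48-ps (3.90) and Mrpl23-ps1 (3.22), all processed pseudogenes.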

How the data were processed

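Per the labels' protocols, liver RNA went into directional libraries. The authors deposited FPKM for each gene in each library. HISAT2, HTSeq, DESeq2, StringTie and mm10 are named in the submitters' processing notes, and the sources used here do not say which tool gave the FPKM. Value columns were matched to samples by group and replicate number. Positions came from GENCODE mouse release 21, which held all 24034 identifiers.

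The 13250 genes whose mean reached 0.5 FPKM were fitted as log2(FPKM + 0.5) with limma 3.58.1 in R 4.3.3, with no block, eBayes with a mean-variance trend, and two-sided tests adjusted by Benjamini-Hochberg. The script was tested on simulated data. Of low values, 28.3% to 31.7% were whole multiples of 1 read within 0.02, too few to recover counts, so no count model was fitted. Relative depth was 19100000 to 24600000 read equivalents.

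The members and lists were chosen with earlier results of these data known, and lists were described, not tested. Named members were those called, the 4 with the smallest p in each direction and subunit, the 3 highest and 3 lowest in each subunit, and 12 with a particular role. Of other lists up to 3 genes with the smallest p were named, and all subunits outside the name rule. Genes outside this rule were named for a shared start or sequence, or after their values were seen. The 16 alternative fits were a pseudocount of 1 or of 0.1, a filter at 1 FPKM or none, median-of-ratios and quantile scaling, eBayes without a trend and robust, array weights (statmod 1.5.0), a replicate block, and leaving out each library. Motif cores were shortened after longer ones had been searched. Subunits were also assigned by structure and with the other subunits added. Python 3.11.15, numpy 2.4.6, pandas 2.3.3 and matplotlib 3.10.9 were used.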

Additional observations from a re-analysis of the deposited data

How the results depend on the processing

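Of all genes 151 passed, against 941 with array weights, 77 without a trend, 40 with no filter, 100 with a pseudocount of 0.1, and 6 (without WT replicate 2) to 259 (without WT replicate 3) with 1 library left out. Higher and lower calls, 43 and 108, became 67 and 66 with median-of-ratios scaling. Mrpl genes past the threshold went from 0 to 2 with array weights and were 0 to 1 with a library left out. Mrps genes went from 2 to 1 with no filter and were 1 to 3 with a library left out. The other lists of mitochondrial gene expression were counted here together with the citrate cycle and the mitochondrially encoded mRNAs. Of these 0 genes passed, against 2 (array weights), 1 (median-of-ratios), 2 (quantile) and 0 to 1 with a library left out. All these passes were of the citrate cycle genes Fh1 and Suclg2 or of mt-Nd6 and mt-Atp6. The Mrpl and Mrps medians, -0.18 and -0.11, were -0.21 and -0.15 (array weights), -0.076 and -0.013 (median-of-ratios), -0.089 and -0.030 (quantile), and -0.20 to -0.16 and -0.20 to -0.10 with a library left out. By place in the structure the Mrps median was -0.16. The cause of these changes was not tested.

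With the replicate number as a block, 25 genes passed in all and 1 Mrps gene, Mrps21. Deviations of same-numbered libraries correlated at 0.0661, -0.0281 and 0.0147, and those of differently numbered ones at -0.126 to 0.128. With 3 libraries in a group, this check cannot tell whether same-numbered samples share more than a number. No named gene turned direction past the threshold under any alternative.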

Other observations

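Of the 77 members, 5 lie on chromosome 13 with Lncenc1 (97434970 to 97497007, mm10), and none of them passed the test. Mrps27, a small subunit protein, is the nearest at 1.85 Mb and was at 19.0, 16.3 and 18.9 FPKM in WT and 15.8, 18.6 and 17.4 in HO, with overlap. Of its exonic bases, 24.2% are shared with another annotated gene on the other strand. Mrps36 lies at 3.24 Mb. Mrps30, Mrpl36 and Mrpl32 lie at 20.9, 24.1 and 82.8 Mb, with log2 changes of -0.04, -0.13 and -0.27.

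Within 1 Mb of Mrps21 on chromosome 3 none of 69 other tested genes passed the limma test (median log2 change -0.06), and within 1 Mb of Mrps14 on chromosome 1 none of 15 (median -0.02). These windows were chosen after the values were seen, and genes beyond them were not counted. Selenbp2 on chromosome 3 lies 1.16 Mb from Mrps21, outside its window, and its values are not reported here.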
